A study of Mus musculus with 2 samples.

Results

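The cathepsins are the proteases that cells keep mainly in endosomes and lysosomes. Here 10 cathepsin genes (Ctsa, Ctsb, Ctsc, Ctsd, Ctse, Ctsh, Ctsl, Ctss, Ctsw and Ctsz) were taken by symbol from the 24421 genes in the expression tables, and all 10 were found. RNA was sequenced from mouse Th1 cells skewed in vitro: naïve CD4 cells were stimulated with antibodies to CD3 and CD28 in the presence of IL-12, IL-2 and an antibody that blocks IL-4. The study describes both a bead kit and a cell sorter for isolating naïve cells, each selecting CD4+CD25- cells with CD62L. Which of these gave the sequenced cells, and their day of culture, is not given in the sources used here. All mice were on the C57BL/6J background. The WT Th1 cells carried Chi3l1+/+ and the Chi3l1 KO Th1 cells carried Chi3l1-/-, a knockout of chitinase-3-like-1. There was 1 library of each genotype (n = 1), so no difference below has a replicate check and no test between genotypes was possible. How many mice each culture came from is also not given.

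The targeted gene, listed as Chil1, went against the labels. It had 1 read in the library labelled WT Th1 and 103 reads in the library labelled Chi3l1 KO Th1. The tables hold values per gene, so whether these reads lie in exons that the targeted allele keeps was not tested. Every direction below therefore refers to the library labelled WT or the library labelled KO. The deposited value is log2 of a normalized count plus 1, and read counts were rebuilt from it (70547462 in total for the library labelled WT and 62888076 for the library labelled KO). The deposited values are rounded, so high counts and these totals are approximate. The log2 fold change is the value of the library labelled KO minus that of the library labelled WT. For each member, and for some other genes, it is given with a 95% exact binomial interval from the rebuilt reads. The interval is for the ratio of normalized counts without the added 1, and it covers counting error only. T cell markers were abundant in both libraries, and all 8 (Cd3d, Cd3e, Cd3g, Cd4, Cd5, Cd28, Thy1 and Lck) had a log2 value above that of 3 reads, which was 1.96 in the library labelled WT and 1.95 in the library labelled KO.

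Cathepsins are made as inactive precursors and are activated at low pH, and they fall into 3 catalytic classes. Ctsd and Ctse are aspartic proteases, Ctsa is a serine carboxypeptidase, and the other 7 members are papain-like cysteine proteases. In T cells, Ctsc removes the activation dipeptide from granzymes. In antigen-presenting cells, Ctss and Ctsl trim the invariant chain (Cd74) from MHC class II. Ctse differs from most of the family in that it is found largely in endosomes and the endoplasmic reticulum of immune and gastric cells rather than in lysosomes.

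The coding stretches around the catalytic residues are shown because they set Ctse and Ctsd, its closest relative among the members, apart from the others. They come from GENCODE M21 (GRCm38), 5′ to 3′, and each has 30 bases. In Ctse and Ctsd the capitals mark the codons of the Asp-Thr-Gly triplet, which both genes encode at 2 places. In Ctsb, Ctsc, Ctsl and Ctss they mark the codon of the catalytic cysteine, and in Ctsa that of the catalytic serine.
Ctse, site 1: actgtcatctttGACACCGGTtcatccaac
Ctsd, site 1: acagtcgtctttGATACTGGCtcctctaac
Ctse, site 2: caggccatagtgGACACAGGGacctctctc
Ctsd, site 2: gaggctattgtgGACACAGGGacatctctt
Ctsb: ggctcctgcggctctTGTtgggcatttggg
Ctsc: gaatcttgtggaagcTGCtactcatttgcc
Ctsl: ggccagtgcgggtctTGTtgggcgtttagc
Ctss: ggttcttgtggtgccTGCtgggctttcagt
Ctsa: ttcctgacaggagagAGCtatgctggcatc

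Over the whole coding sequence, 57.3% of aligned columns were identical between Ctse (1194 bases) and Ctsd (1233 bases). For the other 8 members the identity with Ctse was between 44.0% for Ctsz and 47.6% for Ctsw. The counts included reads with several alignments, so exact sharing of sequence was also measured. None of the 2126 windows of 100 bases in the coding transcripts of Ctse was found in a transcript of another gene, and the same held for Ctsc, Ctsh, Ctss, Ctsw and Ctsz. Ctsd shared 33.4% of its windows with the overlapping gene model Gm49369, and Ctsl shared 24.0% with Gm47123 and Gm49230. Ctsb shared 14.5% with Fdft1, and Ctsa shared 11.1% with Neurl2 and Pltp, all on the opposite strand. Gm49369 lies on the same strand as Ctsd, and Gm49230 on the same strand as Ctsl, so counting by strand would not separate them. Gm47123 lies opposite Ctsl. Whether strand was used in counting is not given in the sources used here. The values of Ctsa, Ctsb, Ctsd and Ctsl are thus less certain than those of the other members.

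Among the aspartic members, Ctse was far higher in the library labelled KO and Ctsd was not. Ctse (ENSMUSG00000004552.16) is on the plus strand (GRCm38, chromosome 1, 131638306 to 131675505), where no exon of another gene overlaps it. It had a log2 value of 8.59 in the library labelled WT, from 395 reads, and 13.39 in the library labelled KO, from 11097 reads. The library labelled KO was 28.0-fold higher, with a log2 fold change of 4.81 (counting interval 4.67 to 4.96). Ctsd, the major aspartic protease of the lysosome (chromosome 7, 142375911 to 142388038), had a log2 value of 12.59 from 6358 reads in the library labelled WT. In the library labelled KO it was 12.41, from 5633 reads, and the log2 fold change was -0.18 (interval -0.23 to -0.13). The order of the pair thus turned around. The normalized count of Ctse was 6.21% of that of Ctsd in the library labelled WT and 197% of it in the library labelled KO. This ratio is taken within a library, so no scaling between libraries enters it.

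**Figure D1:**
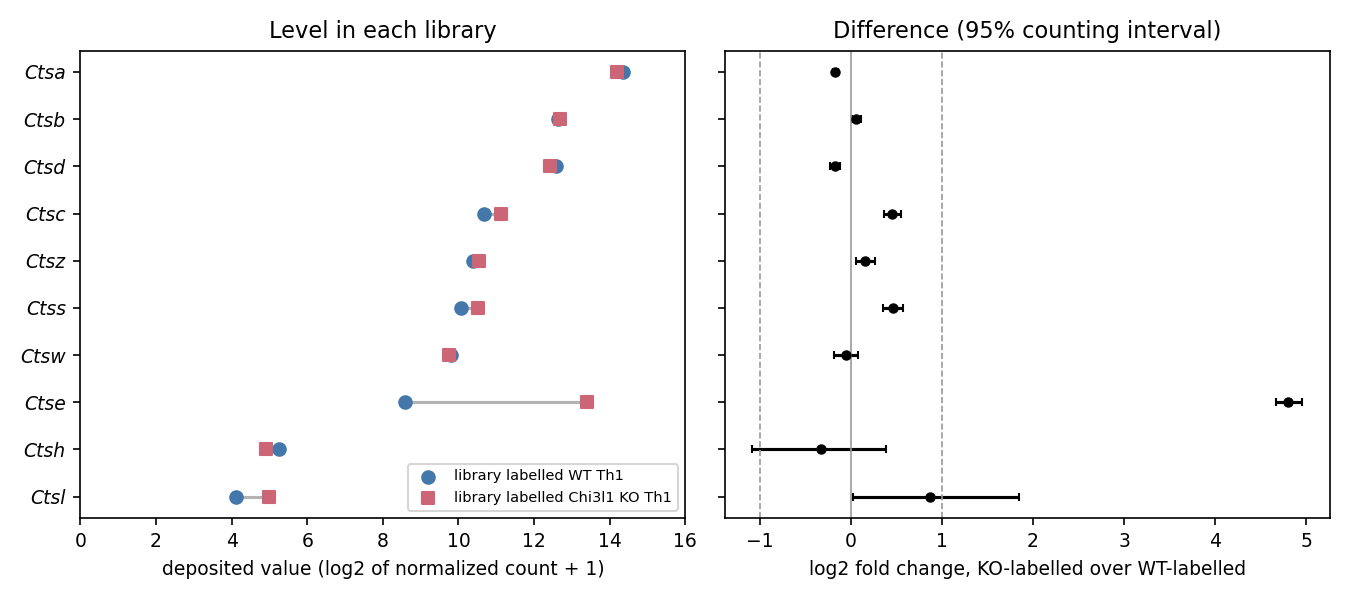
The left panel plots the deposited log2 value of each cathepsin in the library labelled WT Th1 (circles) and in the library labelled Chi3l1 KO Th1 (squares), and the right panel plots the log2 fold change with its 95% counting interval, with dashed lines at 2-fold. Ctse stands at 4.81, and the other 9 members lie between -0.33 and 0.87.

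The serine carboxypeptidase Ctsa, which also protects β-galactosidase and neuraminidase in the lysosome, had the highest value of the members in both libraries. It was 14.36 in the library labelled WT (21596 reads) and 14.18 in the library labelled KO (19175 reads), a log2 fold change of -0.17 (interval -0.20 to -0.15). Its partners moved little. Glb1, the β-galactosidase, had a log2 fold change of 0.09, and Neu1, the neuraminidase, had -0.03.

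Of the 7 cysteine cathepsins, Ctsb, Ctsc, Ctss, Ctsz and Ctsl were higher in the library labelled KO by less than 2-fold, with a counting interval above 0, and of these Ctsl rested on few reads. Ctss, the invariant chain protease, had 1095 reads in the library labelled WT and 1511 in the library labelled KO. Its log2 values were 10.05 and 10.52, a difference of 0.46 (interval 0.35 to 0.58). Ctsc, the granzyme-activating dipeptidyl peptidase, was nearly as far apart. It had log2 values of 10.66 (1670 reads) and 11.12 (2290 reads), a difference of 0.45 (interval 0.36 to 0.55). Ctsz, a carboxypeptidase also called cathepsin X, was 10.38 (1371 reads) and 10.53 (1530 reads), a difference of 0.16 (interval 0.05 to 0.26). Ctsb, an abundant lysosomal cysteine protease, differed least of these. Its values were 12.64 (6564 reads) and 12.70 (6854 reads), a difference of 0.06 (interval 0.01 to 0.11). The sizes of these small differences moved with the processing. With the trend of fold change with GC content removed, Ctsb was 0.02, Ctsc 0.23, Ctss 0.34 and Ctsz 0.42.

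Ctsw was level between the libraries, and Ctsh and Ctsl had few reads. Ctsw, a cathepsin of cytotoxic lymphocytes, was 9.81 (927 reads) in the library labelled WT and 9.76 (893 reads) in the library labelled KO, a difference of -0.06 whose interval spans 0 (-0.19 to 0.08). Ctsh, an aminopeptidase, was 5.24 (38 reads) and 4.91 (30 reads), a difference of -0.33 (interval -1.08 to 0.39). Ctsl, the second invariant chain protease, was the lowest member. It had 17 reads in the library labelled WT, a log2 value of 4.13, and 32 in the library labelled KO. Its log2 fold change was 0.87, with a wide interval of 0.02 to 1.85.

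At a line of 2-fold, 1 of the 10 cathepsins was higher in the library labelled KO and 0 were lower. Over all 24421 genes, 4.7% were at least 2-fold higher and 5.81% were at least 2-fold lower. At least 100 reads in the higher library were counted for 8 members, all but Ctsh and Ctsl. Of these 8, Ctse was past the line, against 1.52% of the 10893 genes with that many reads (2.05% were past it in the lower direction). The 9 members without Ctse had a median log2 fold change of 0.06, with 5 higher and 4 lower, and the median over the 14666 genes above 0 in both libraries was -0.003. Ctse had been singled out by the study as a changed gene, so the size of its difference is given as a description.

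**Figure D2:**
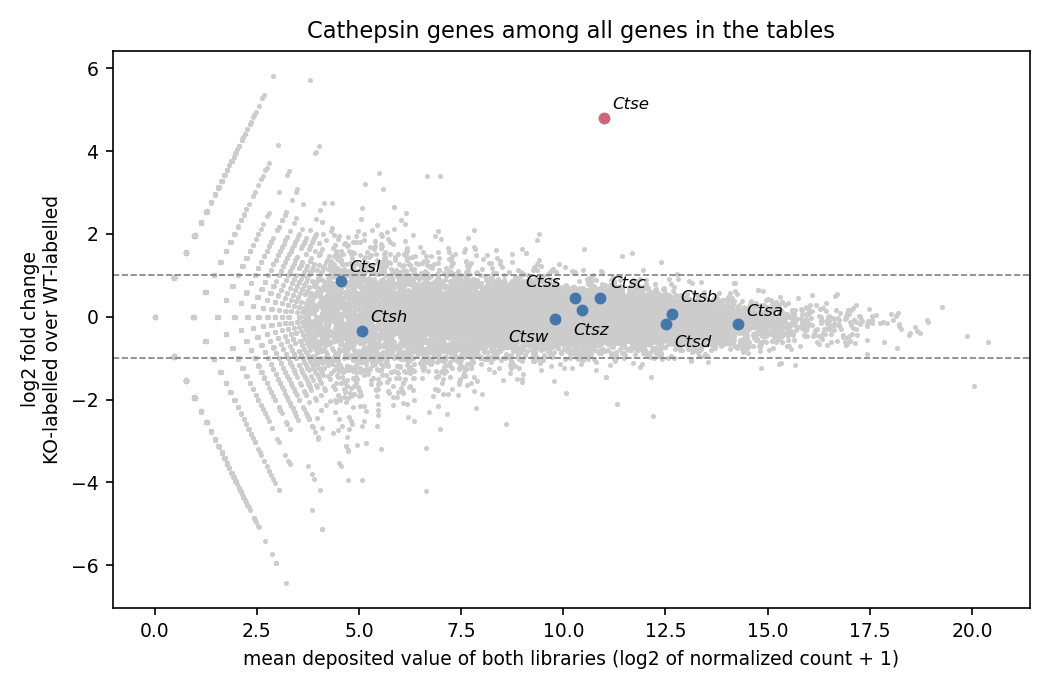
Each grey point is a gene, plotted by its mean deposited log2 value (x) and its log2 fold change (y), with dashed lines at 2-fold. The cathepsins are named, with Ctse in red. Ctse lies above all other genes of similar or higher mean value, while the other 9 members lie inside the dashed lines.

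The difference of Ctse was large for a gene of its level. In the set of 8886 genes whose values reached 8 in both libraries, Ctse had the highest log2 fold change, and the next was Mnda with 1.99 (from 8.41 to 10.40). Timp1 followed with 1.84. Among the 10893 genes with at least 100 reads in the higher library, 5 (0.046%), Ctse included, differed by as much as Ctse in either direction. Chil1 was among them with 5.71 and Gm13308 with -5.13, both named after their values were seen. By the same measure, 24.2% of these genes differed by as much as Ctss, 25.1% by as much as Ctsc and 64.8% by as much as Ctsd. The 3 genes nearest to Ctse in the pair of log2 values were AA388235 (9.68 and 11.32), Dgkh (10.69 and 12.17) and Snord37 (10.91 and 12.43). The closest, AA388235, was 2.35 log2 units away (Euclidean distance over the 2 libraries).

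Because a longer transcript collects more reads, levels between genes were compared as normalized count per kilobase of annotated exon. On this scale Ctsa led in the library labelled WT with 4444 per kilobase, followed by Ctsd with 2624 and Ctsb with 1052, while Ctse ranked 8 with 121. In the library labelled KO, Ctsa was again first with 3939, Ctse came next with 3391 and Ctsd followed with 2321. Ctsh and Ctsl were the lowest in both, at 2.54 to 8.18 per kilobase. The 10 members summed to a normalized count of 38840 in the library labelled WT and 47506 in the library labelled KO. Ctse made up 0.99% of that sum in the former and 22.6% in the latter. Without Ctse the sum was slightly lower in the library labelled KO, 36757 against 38457, a log2 difference of -0.07 that is smaller than the shift of 0.12 made by scaling to Actb.

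The rest of the cathepsin family was mostly absent. Of 13 further family genes, 10 were listed at 0 in both libraries, among them Ctsk and the rodent placental cathepsins (Cts3, Cts6, Cts7, Cts8, Ctsj, Ctsm, Ctsq, Ctsr and Ctsll3). Ctsf, a cysteine cathepsin, had 113 reads in the library labelled WT and 29 in the library labelled KO, a log2 fold change of -1.93 (interval -2.61 to -1.37). Ctso, a further cysteine cathepsin, had 71 and 82 reads, and Ctsg, the serine protease of neutrophil granules, had 13 and 3. Of the aspartic proteases outside the members, Napsa had a log2 fold change of 0.40 (250 and 330 reads) and Bace1 had 0.39 (343 and 451 reads). Bace2, Ren1, Pgc and Pga5 had log2 values of at most 1.55 in either library.

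Of the inhibitors with at least 100 reads in the higher library, 1 was higher and 3 were lower in the library labelled KO, and 2 of 4 were lower when the libraries were scaled to Actb or to the total. Cst7 encodes cystatin F, an inhibitor of lymphocyte cathepsins including Ctsc, and it had 2010 reads in the library labelled WT and 1048 in the library labelled KO. Its log2 fold change was -0.94 (interval -1.05 to -0.83). Serpinb6a, an intracellular serpin, had 877 and 445 reads and a log2 fold change of -0.98 (interval -1.15 to -0.82). Cst3, the secreted cystatin C, had 0.24, and Cstb, the cytosolic cystatin B, had -0.05. Of the 10 inhibitor genes, these 4 had enough reads and 0 of them were past 2-fold as deposited. Below that minimum, Cst6 had 27 and 5 reads, a log2 fold change of -2.23 (interval -4.17 to -1.04). Serpinb1a, also below it, had 79 and 66 reads and a log2 fold change of -0.26 (interval -0.76 to 0.23). The stefins Stfa1, Stfa2, Stfa3 and Stfa2l1 were listed at 0 in both libraries. Among genes that process cathepsins or are cleaved by them, Lgmn (legumain, which matures several cathepsins) had a log2 fold change of 0.80 (378 and 658 reads). Cd74 had -0.02, Gzmb had 0.05 and Gzmc had -0.23. Gzma, with 24 and 52 reads, had 1.08 (interval 0.39 to 1.88).

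The lysosome as a whole was then set beside Ctse. Lysosomal enzymes reach the organelle by mannose 6-phosphate tags and their receptors, the V-ATPase acidifies its lumen, and the MiT transcription factors (Tfeb, Tfe3, Mitf and Tfec) switch on many of its genes. Of 86 genes in 4 lists (hydrolases, membrane proteins, V-ATPase subunits, and delivery genes with MiT factors), 83 had at least 100 reads in the higher library. Of these 83, 1 was at least 2-fold higher in the library labelled KO and 0 were at least 2-fold lower, against the 1.52% and 2.05% of all genes with that many reads. Their median log2 fold change was -0.03, beside -0.006 for all such genes, with 41 higher and 42 lower. When the libraries were scaled to the total, 53 of the 83 were higher, along with 66.0% of all such genes.

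The list of hydrolases, which also holds activator proteins such as Gm2a and Psap, was spread on both sides. Among the 35 with at least 100 reads, 15 were higher and 20 lower, and the range ran from -0.87 for Gm2a, the GM2 activator protein, to 0.91 for Aga, which cleaves sugar chains from asparagine. The most abundant gene of the list, Psap (prosaposin), had 153358 and 143731 reads and a log2 fold change of -0.10. Man2b1, a mannosidase, had -0.21. Of 18 genes in the list of membrane proteins, 6 were higher and 12 lower, from -0.50 for Hgsnat to 0.44 for Tpcn2. Of all genes with at least 100 reads, 49.35% were higher. When the libraries were scaled to the total, 10 of the 18 were higher, along with 65.95% of all such genes. With the GC trend removed, 5 of the 18 were higher. Lamp1, the best-known lysosomal membrane protein, had 0.14, and Laptm5, a lysosomal protein of blood cells, had -0.44. Npc2, a soluble protein in this list that moves cholesterol out of the lumen, had 0.08. Cd63, a tetraspanin of late endosomes, was below the minimum of 100 reads, with 59 reads in the library labelled WT and 8 in the library labelled KO, a log2 fold change of -2.74 (interval -4.16 to -1.81).

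The 16 V-ATPase subunits and accessory proteins leaned upward by small amounts. There were 13 higher and 3 lower in the library labelled KO, where 49.4% of all genes with at least 100 reads were higher, and their median was 0.17. The range was from -0.39 for Atp6v0a1 to 0.87 for Atp6ap2, and 0 of 16 were past 2-fold. Under the other scalings 13 or 14 of the 16 were higher. The 14 came with scaling to Actb or to the total, where 60.85% and 65.95% of all such genes were higher. Among the 14 delivery genes and MiT factors with enough reads, 7 were higher and 7 lower. Tfe3 had a log2 fold change of -0.34 (22296 and 17608 reads), Tfeb had -0.51 (5940 and 4184 reads) and Tfec was listed at 0 in both libraries. Mitf was the single gene of the 4 lists past 2-fold among those with at least 100 reads in the higher library. It met that minimum only in the library labelled KO, where it was higher. It had 25 reads in the library labelled WT and 107 in the library labelled KO, a log2 fold change of 2.05 (interval 1.46 to 2.79).

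**Figure D3:**
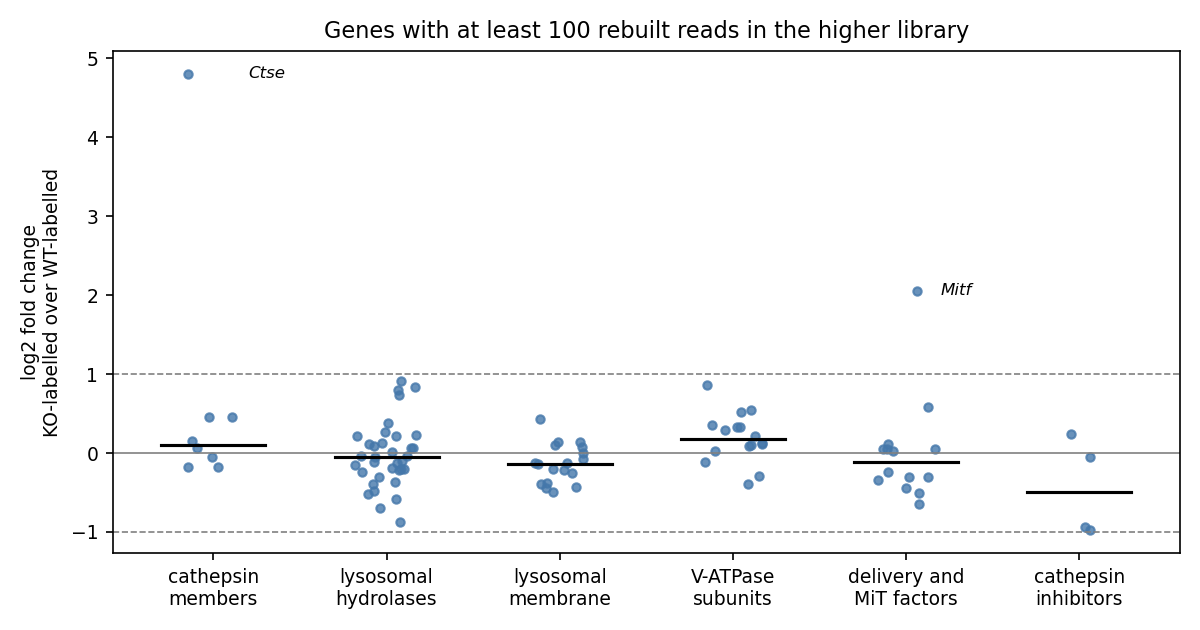
Each point is a gene with at least 100 reads in the higher library, grouped by list on the x axis and plotted by its log2 fold change on the y axis, with a bar at the median of each list and dashed lines at 2-fold. The lists are the cathepsin members, the 4 lysosomal lists and the cathepsin inhibitors. Outside Ctse and Mitf, all points lie between the dashed lines. The bars of the 4 lysosomal lists lie between -0.14 and 0.17.

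The E-box that MiT factors bind (letters CACGTG, or TCACGTGA in a longer form) was searched for on either strand of the promoters, from 250 bases before to 50 bases after each start site (RefSeq, GRCm38.p6). Both letter strings read the same on both strands, and the longer contains the shorter. Entries were present for 6 members, Ctsa, Ctsc, Ctsd, Ctsl, Ctss and Ctsz, and Ctsb, Ctse, Ctsh and Ctsw had none. CACGTG was in 3 of the 6 (Ctsa, Ctsd and Ctsl), in 27.9% of the 68 lysosomal genes with an entry, and in 8.09% of all 27025 genes with an entry. TCACGTGA was in Ctsa and Ctsd, in 13.2% of the lysosomal genes and in 1.12% of all genes. The lysosomal genes were all taken from the expression tables. Of the 17224 genes with an entry that are also in those tables, 9.17% held CACGTG and 1.46% held TCACGTGA. Ctsa had a further entry upstream (164832622 to 164832921), with 0 matches. The windows of Ctsa and Ctsd are shown, with CACGTG in capitals, because they are the members that hold the longer form. Both had a slightly lower value in the library labelled KO (log2 fold changes of -0.17 and -0.18), but with the GC trend removed the values were -0.03 for Ctsa and 0.03 for Ctsd, and when scaled to the total they were -0.006 and -0.009. A match describes letters only.
Ctsa, chr2:164833741-164833786, plus strand: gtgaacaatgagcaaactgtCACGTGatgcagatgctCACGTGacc
Ctsd, chr7:142387900-142387945, minus strand: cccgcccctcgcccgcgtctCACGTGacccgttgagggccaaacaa

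Markers of other cells were examined because Ctse is also expressed outside T cells. In a bulk sample, more cells of a type and more RNA per cell cannot be told apart. All 6 B cell markers were higher in the library labelled KO. Cd22 had 719 and 1651, Blk had 17 and 71, and Cd79b differed least with 268 and 323. Their summed normalized count was 1561 in the library labelled WT and 3227 in the library labelled KO, a ratio of 2.07, and none of them was at 0. The normalized count of Ctse alone went from 383 to 10749 between the same libraries. It was 24.6% of the summed B cell markers in the library labelled WT and 333% of them in the library labelled KO. Both isolation steps select for CD4, which B cells lack, but the study describes neither as fully pure. All 6 B cell markers had reads in both libraries. The part of B cells in the Ctse difference was not tested.

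Markers of the remaining cell types were scarce. The 6 dendritic cell markers summed to 73.6 and 121.9, with 3 higher (Flt3 with 18 and 68 reads, Zbtb46 with 14 and 48, and Xcr1 with 0 and 5), 1 lower (Itgax with 44 and 5), and Clec9a and Siglech at 0 in both. The 7 monocyte or macrophage markers summed to 147.4 and 205.2, with 3 higher and 3 lower, and Adgre1 was at 0 in both. Only 1 of them had at least 100 reads in the higher library. It held 94.1 and 168.5 of these sums and was among those higher, with a log2 fold change of 0.83 (interval 0.47 to 1.21). Mrc1, a mannose receptor, had 0 and 29 reads, and Lyz2, a lysozyme, had 34 and 2. The 7 neutrophil markers went the other way, from 81.2 to 4.8, with 6 lower, 0 higher, and Camp at 0 in both. Ctse is also known from erythroid cells, whose 7 markers summed to 167.6 and 115.2, with 1 higher and 5 lower. A single marker held 157.1 and 96.8 of these sums, so they say little about the rest. The 1 that was higher had 3 and 19 reads. Of the 6 epithelial markers 1 was higher and 3 were lower, with sums of 378.3 and 391.3, and Krt8 and Krt19 at 0 in both. T cell markers were lower for 8 of 8 as deposited, with a summed ratio of 0.89, but for 4 of 8 when the libraries were scaled to Actb, to the total or by quantiles. Of the 6 Th1 markers 4 were higher and 2 lower, with a summed ratio of 1.22. Ifng, the defining Th1 cytokine, had 3478 and 8718 reads, a log2 fold change of 1.32 (interval 1.27 to 1.38), and Cxcr3, a Th1 chemokine receptor, had 273 and 116 reads. The part of these lists in the Ctse difference was not tested.

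**Figure D4:**
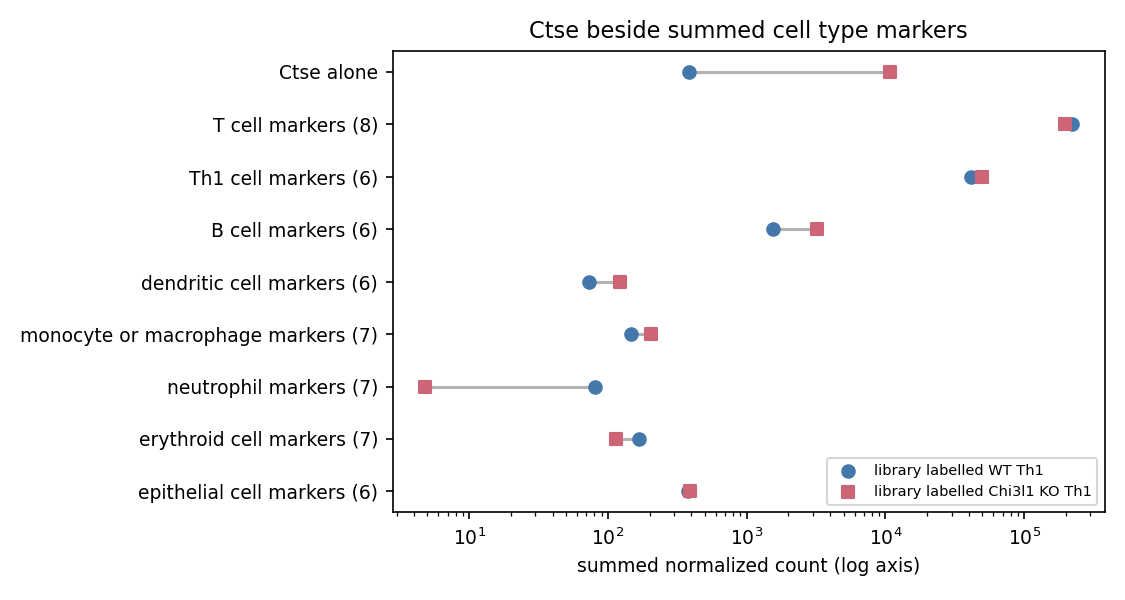
The plot shows, on a log axis, the normalized count of Ctse and the summed normalized counts of each marker list in the library labelled WT Th1 (circles) and the library labelled Chi3l1 KO Th1 (squares), with the number of markers in parentheses. Ctse goes from 383 to 10749, from below to above the B cell sum, and the T cell sums are 222776 and 198482.

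Near Ctse on chromosome 1, the genes with at least 100 reads did not share its difference. The nearest gene on each side, Avpr1b and Rab7b, had too few reads to compare. Of the 5 nearest genes of the tables on each side, 6 had at least 100 reads, and their log2 fold changes were between -0.37 and 0.45. These 6 lay 98.4 to 393 kilobases from Ctse. On the side of lower coordinates these were Rassf5 (-0.06), Ikbke (-0.37), Srgap2 (-0.07) and Fam72a (0.45), and on the other side Slc41a1 (0.10) and Rab29 (-0.27). Rab7b, the nearest gene on that side at 13.2 kilobases, had 4 and 11 reads. Its log2 fold change was 1.265, with an interval of -0.298 to 3.563 that spans 0. Slc26a9 had 0 and 3 reads, and Avpr1b and Pm20d1 were listed at 0 in both libraries. Chil1, the targeted gene, lies 2.51 megabases away on the same chromosome (134182176 to 134190181).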

How the data were processed

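Libraries were made by the authors from polyadenylated RNA with the SENSE mRNA-Seq kit and sequenced as paired reads of 100 bases. The submitters' notes name TopHat, edgeR and the genome build mm10, and the paper's methods state that unique and multiple alignments were counted and that a global normalization was applied. The annotation is not given in the sources used here. From their range and spacing, the deposited values were taken to be log2(normalized count + 1). After this was undone, low values lay in bands 0.970 apart (library labelled WT) and 0.969 apart (library labelled KO). All 3275 and 3257 values of 1 to 30 reads were within 0.1 read of a whole number. Rebuilt counts summed to 70547462 and 62888076. Because the deposited values are rounded, counts far above this range and the sums are approximate. Reads are not independent molecules, so the exact binomial intervals (95%) cover counting error only.

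Fold changes are differences of the deposited values, without a further pseudocount, and are smaller than count ratios for low genes. The members and gene lists were chosen with earlier results of these data known. Named were all members, and of the other lists the genes past 2-fold with at least 100 reads in the higher library, the 3 with the highest mean, and any gene of lists of up to 8. Some extremes of a list were named after their values were seen, and not every gene under this rule is described. The 5 neighbours on each side and the 3 genes nearest to Ctse completed the rule. Positions, exon lengths and GC content were taken from the GRCm38 annotation GENCODE M21, in which 95.8% of 15541 symbols (those reaching a value of 1) were found. Some single marker genes are not reported here. The scripts were tested on simulated data. Alternatives were a pseudocount of 0.1 or none, median-ratio, Actb, total and quantile scaling, removal of the trend with GC content, thresholds of 1.5-fold and 3-fold, and other read minimums. Python 3.11.15, numpy 2.4.6, pandas 2.3.3, scipy 1.17.1, Biopython 1.88 and matplotlib 3.10.9 were used.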

Additional observations from a re-analysis of the deposited data

How the results depend on the processing

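The log2 fold change of Ctse was between 4.79 and 4.97 under the 7 alternatives, the latter when the libraries were scaled to their totals. Scaling to the total moved the median of all genes by 0.17 and scaling to Actb moved it by 0.12. With these the median of the other 9 cathepsins was 0.23 and 0.18, and that of the lysosomal genes was 0.135 and 0.083. Scaling to the total put 2 cathepsins (Ctse and Ctsl) past 2-fold and 4 lysosomal genes, and scaling to Actb put 2 lysosomal genes past it. At 1.5-fold, 2 cathepsins were higher, and 7 lysosomal genes were higher and 4 lower. With at least 1000 reads, 0 lysosomal genes were 2-fold higher, since Mitf has fewer reads, and with no filter 1 was 2-fold lower (Cd63, 59 and 8 reads). The inhibitor Serpinb6a was past 2-fold lower with quantile normalization and with the GC trend removed. Median fold changes over 20 bins of GC content ran from 0.23 in the lowest to -0.45 in the highest, as large as most differences of the members. Ctsd became 0.03 with the GC trend removed. Ctsw became 0.11 when scaled to the total and 0.10 with the GC trend removed, and it was also above 0 when scaled to Actb. The other 8 members kept their direction under all 7, but not their size. Ctsa was between -0.17 and -0.006, Ctsb between 0.02 and 0.23, Ctsc between 0.23 and 0.62, and Ctsz between 0.15 and 0.42. No paired analysis was possible because there is 1 library of each genotype. Depth limits Ctsh and Ctsl, with at most 38 reads in either library.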
